A study of Mus musculus with 15 samples.

Results

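The nuclear-encoded subunits of the respiratory chain and of ATP synthase were followed through the activation of CD8+ T cells with and without Susd2. Members were the rows of the deposited gene count table whose symbols name a subunit of complex I (Nduf), complex II (Sdh), complex III (Uqcr), complex IV (Cox4 to Cox8) or ATP synthase, called complex V (Atp5), with symbols containing -ps left out. The rule found 86 of 27019 rows, of which 40 belonged to complex I, 4 to complex II, 8 to complex III, 17 to complex IV and 17 to complex V. Among them Ndufa11b, Ndufb4c, Ndufs6b and Cox6c2 are annotated as processed pseudogenes in GENCODE M21. They stayed in all counts of members, since the rule goes by symbol. The 4 groups were Susd2-/- day 3, WT day 3, Susd2-/- day 0 and WT day 0, with 2 libraries each. All were CD8+ T cells from spleens of C57BL/6 mice aged 8 to 10 weeks that carried the OT-I transgene, a T cell receptor specific for an ovalbumin peptide. Day 3 cells had been stimulated with that peptide, day 0 cells had been left untreated, and both were enriched with a magnetic bead kit that removes other cells. Poly(A) RNA was sequenced from strand-marked paired-end libraries. The labels do not say whether 2 libraries of a group stand for 2 animals, so the p-values reflect library-to-library spread alone, and that spread may be purely technical.

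The respiratory chain sits in the inner mitochondrial membrane. Complexes I and II pass electrons from NADH and succinate to coenzyme Q, complex III passes them to cytochrome c and complex IV to oxygen, while complexes I, III and IV pump protons and ATP synthase uses the gradient to make ATP. Most subunits are encoded in the nucleus and imported, a small set is made inside the mitochondrion, and the complexes are assembled from both. Resting T cells rely largely on oxidative phosphorylation, and stimulated T cells build mitochondria while they also switch on glycolysis.

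Library totals lay between 26829807 and 53846911 counts. Susd2 had 0 and 2 counts in Susd2-/- day 3 libraries, 16 and 10 in WT day 3, 1 and 3 in Susd2-/- day 0 and 90 and 80 in WT day 0. Cd8a, which defines the labelled cell type, had 1211 ± 21.6 CPM in Susd2-/- and 1240 ± 22.3 CPM in WT libraries at day 0 (SD, n = 2 each). It is 1 of 10 CD8 T cell genes checked, of which at day 0 Cd8b1 (log2 difference -0.27), Cd3g (-0.41), Trbc2 (-0.40) and Cd3d (-0.34) were lower in Susd2-/- than in WT and Zap70 (0.18) was higher by edgeR. CPM are counts relative to 1e+06 counts of a library total scaled by trimmed mean of M values, so a value is a share of the library and not an amount per cell, and in these bulk samples fewer cells of a type and less RNA per cell cannot be told apart. Of the 86 members, 81 passed the filter on low counts. The 5 others were the tissue-restricted isoforms Cox4i2 (15 counts over all 8 libraries), Cox6a2 (24), Cox8b (5) and Ndufa4l2 (5), together with Ndufa11b (2).

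The subunit transcripts rose broadly from day 0 to day 3 in both genotypes. There was no untreated day 3 group, so peptide, time and the separate sets of libraries cannot be told apart. Members together took 1.26% and 1.33% of the counts of the Susd2-/- day 3 libraries, against 0.687% and 0.656% at day 0. In WT they took 1.24% and 1.24% at day 3 and 0.768% and 0.760% at day 0. Every day 3 library was thus above every day 0 library, and ATP synthase alone accounted for 0.609% to 0.648% of counts at day 3 and 0.264% to 0.293% at day 0. Against day 0, 71 of the 81 members rose and 3 fell in Susd2-/- cells (edgeR quasi-likelihood test, adjusted p below 0.05), and 63 rose and 7 fell in WT cells. The table-wide shares were 36.7% of 16057 genes higher and 39.7% lower in Susd2-/- (76.4% in either direction), and 36.2% higher and 39% lower in WT (75.2%). The median log2 fold change of the members was 1.10 in Susd2-/- and 0.79 in WT, where the medians of all tested genes were -0.12 and -0.14. The 2 day comparisons use separate libraries, and 62 members rose in both. Cell type markers changed over the days as well. All 10 CD8 T cell genes and all 8 NK cell markers fell in both genotypes. Of 15 red pulp macrophage and monocyte markers, 14 fell and 1 rose in Susd2-/- (median -9.15), and 13 fell and 1 rose in WT (-7.21). The part of this in the members' rise was not tested.

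**Figure D1:**
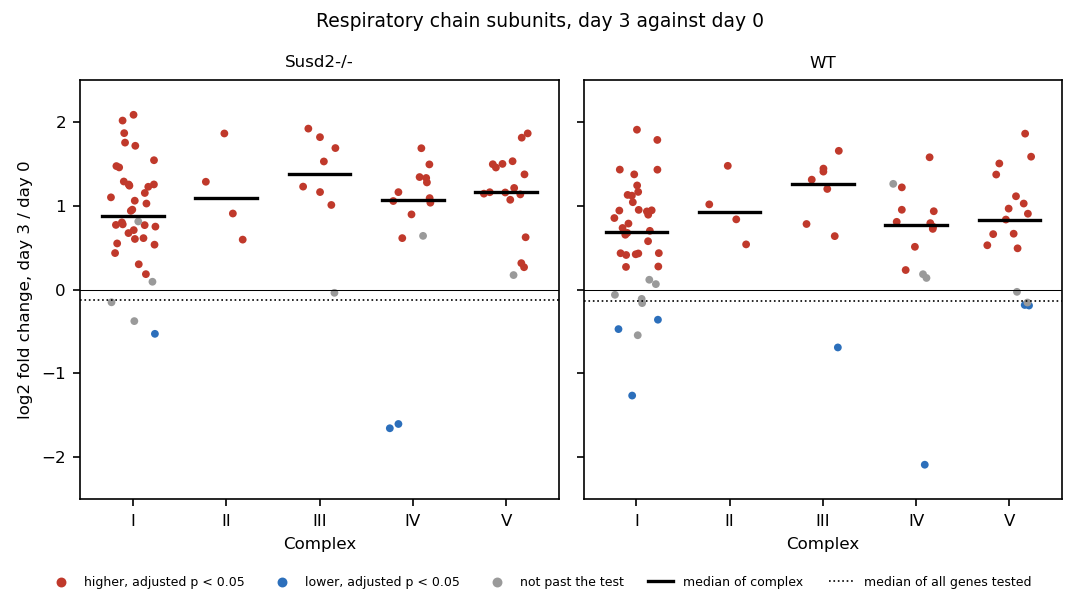
Each point is 1 member; the vertical axis is its log2 fold change of day 3 over day 0, the horizontal axis its complex, and the panels are Susd2-/- and WT. The medians of all 5 complexes (bars) lie above the median of all tested genes (dotted), at 0.88 to 1.38 in Susd2-/- and 0.69 to 1.25 in WT, with few members below 0.

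Every complex took part. In complex I, 33 of 38 tested members rose in Susd2-/- and 29 in WT. The 7 nuclear core subunits of complex I, which carry the flavin, iron-sulfur clusters and quinone site, all rose in both genotypes, by 0.55 to 1.25 in Susd2-/- and 0.65 to 1.13 in WT on the log2 scale. The 31 other tested members are accessory subunits, except for the pseudogenes Ndufb4c and Ndufs6b and for Ndufa4, which is taken up with complex IV below. These 31 members were more spread, from -0.53 to 2.08 in Susd2-/- and -1.26 to 1.91 in WT. Ndufa12, an accessory subunit of the matrix arm, led them: it had 78.8 and 77.8 CPM in Susd2-/- day 3 libraries against 20.35 and 16.5 at day 0, and 78.0 and 85.5 in WT at day 3 against 21.6 and 22.0 at day 0. The day 3 libraries stood well above the day 0 libraries in either genotype, 4.24-fold in Susd2-/- and 3.75-fold in WT (log2 fold change 2.08 ± 0.096 and 1.91 ± 0.095, SE; adjusted p 1.8e-13 and 6.4e-13 by edgeR). Ndufb6, a membrane-arm subunit, rose by 1.87 and 1.78, and Ndufb8, of the same arm, rose by 1.54 and 1.43. Ndufc2, another membrane-arm subunit, rose by 2.02 ± 0.15 in Susd2-/- and 0.93 ± 0.14 in WT.

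All 4 genes of complex II, which is also the succinate dehydrogenase of the citric acid cycle, rose in both genotypes. Sdhd, a membrane anchor that helps bind coenzyme Q, had 199.5 and 212 CPM in Susd2-/- at day 3 against 58.1 and 55.1 at day 0, and 192 and 175 in WT at day 3 against 66.8 and 65.5 at day 0. The groups did not overlap, and the log2 changes were 1.86 ± 0.071 and 1.48 ± 0.070. The other anchor, Sdhc, rose by 0.91 and 0.84, and the iron-sulfur subunit Sdhb by 1.29 and 1.02. Sdha, the flavoprotein that oxidises succinate, rose least, by 0.60 and 0.54, with 408 and 402 CPM in Susd2-/- at day 3 against 276 and 260.5 at day 0, and 399.7 and 371 in WT at day 3 against 270.0 and 260.2 at day 0.

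In complex III, 7 of 8 members rose in each genotype. Of the small subunits, 3 rose most: Uqcr11 by 1.92 and 1.44, Uqcrq by 1.82 and 1.66 and Uqcr10 by 1.69 and 1.41 in Susd2-/- and in WT. The core proteins Uqcrc1 (1.16 and 1.20) and Uqcrc2 (1.01 and 0.64) and the Rieske iron-sulfur protein Uqcrfs1 (1.53 and 1.31) also rose, as did the small subunit Uqcrb (1.23 and 0.78). The member that did not rise was Uqcrh, the hinge protein next to cytochrome c1. It had 117 and 135 CPM in Susd2-/- at day 3 against 135 and 124 at day 0, and 123 and 108 in WT at day 3 against 196.5 and 176 at day 0. It fell in WT (log2 fold change -0.69 ± 0.085, adjusted p = 1.2e-06 by edgeR) and did not pass the test in Susd2-/- (-0.04, adjusted p = 0.68).

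Complex IV held both the common response and its clearest exception. Cox5a, a matrix-side subunit, rose by 1.69 in Susd2-/- and 1.58 in WT, and Cox5b, its zinc-binding neighbour, by 1.16 and 1.22. Cox7a2l encodes the member of the Cox7a family that joins complexes III and IV into supercomplexes, and C57BL/6 mice carry a shortened form of it. It had 88.1 and 103 CPM in Susd2-/- libraries at day 3 against 303 and 279 at day 0, and 92.2 and 103 in WT at day 3 against 420 and 411 at day 0. Its transcript was 3.04-fold lower at day 3 in Susd2-/- and 4.26-fold lower in WT (log2 fold change -1.60 ± 0.079 and -2.09 ± 0.080, adjusted p 1.9e-12 and 5.4e-14 by edgeR), with no library of day 3 near one of day 0. Its paralogue Cox7a2, the widely expressed isoform within complex IV, rose by 1.49 and 0.93. At day 0 the Cox7a2l level per kilobase of transcript was first among tested members in WT (386 CPM per kb) and rank 3 in Susd2-/- (271 CPM per kb), and at day 3 it was 88.9 and 90.8 CPM per kb in Susd2-/- and WT.

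Among the other isoform pairs, the ubiquitous form carried nearly all of the transcripts. Cox4i1 had 566 and 544 CPM per kb in Susd2-/- and WT at day 3 and 276 and 324 at day 0, and rose by 1.04 and 0.75 on the log2 scale, while Cox4i2, the isoform of lung and of low oxygen, had no count in any day 0 library and at most 7 at day 3. Cox6a1 rose by 0.90 and 0.95, and its heart and muscle counterpart Cox6a2 had at most 7 counts in a library. Cox8a rose by 1.06 and 0.79 beside at most 2 counts of the muscle form Cox8b. Ndufa4, listed here with complex I by its symbol but purified with complex IV, rose by 1.06 and 0.42, and its hypoxia-linked paralogue Ndufa4l2 had at most 2 counts. The muscle isoform Cox7a1 was at 0.274 to 1.20 CPM in all libraries, and its rise in Susd2-/- (log2 fold change 1.34, adjusted p = 0.044 by edgeR) was lost without Susd2-/- day 3 library 2 or Susd2-/- day 0 library 4.

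Over all tested members at day 3, ATP synthase had the highest median level per length of the 5 complexes. It was 202 CPM per kb in Susd2-/- and 200.1 in WT, where that of complex IV was 170 and 168. At day 0 the ATP synthase median was 91.6 in Susd2-/-, where that of complex IV was 96.4, and 137 in WT. The complex IV median counts the pseudogene Cox6c2 and the isoforms Cox7a1 and Cox6b2. In Susd2-/- at day 3 these had 10.3, 2.41 and 1.26 CPM per kb. The order of complexes IV and V at day 3 depends on counting these rows. Atp5b, the catalytic beta subunit of the F1 head, had 2512 and 2592 CPM in Susd2-/- at day 3 against 748 and 705 at day 0, and 2532 and 2533 in WT at day 3 against 699 and 696 at day 0. It stood first among tested members at day 3, with 1332 and 1322 CPM per kb in Susd2-/- and WT, ahead of Atp5a1, the alpha subunit of the same head, with 656 and 641. The log2 changes of Atp5b were 1.81 ± 0.059 and 1.86 ± 0.059, and those of Atp5a1 1.46 and 1.37. Atp5pb, subunit b of the peripheral stalk, rose by 1.53 and 1.03. Not all of the enzyme followed: Atp5e, the epsilon subunit of the head, rose by 0.27 in Susd2-/- and had -0.03 in WT (adjusted p = 0.74), and the stalk subunit Atp5h rose in neither (0.17 and -0.19).

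**Figure D2:**
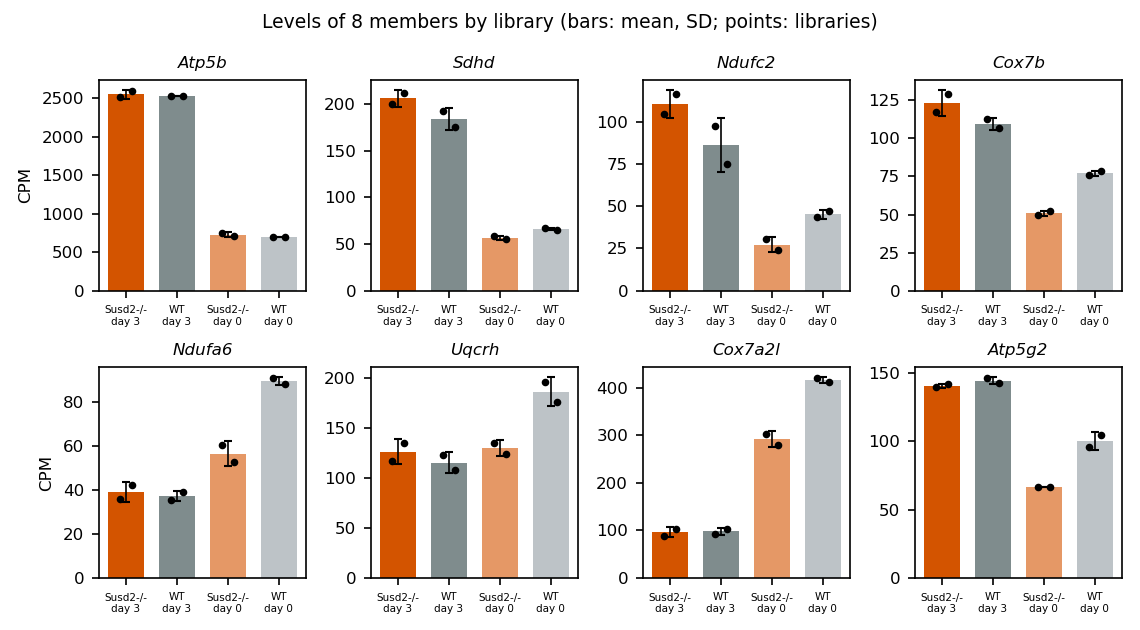
CPM of 8 members in the 4 groups; bars are means of 2 libraries, error bars are SD and points are libraries. Atp5b, Sdhd, Ndufc2 and Cox7b stand higher at day 3, Ndufa6 and Cox7a2l lower, and Uqcrh is highest in WT at day 0.

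Subunit c forms the rotor ring of ATP synthase, and 3 nuclear genes encode the same mature protein. Their sum was 648 and 663 CPM in Susd2-/- at day 3 against 247 and 235 at day 0, and 651 and 612 in WT at day 3 against 267 and 273 at day 0. Atp5g3 rose by 1.50 in both genotypes and Atp5g1 by 1.86 and 1.58, whereas Atp5g2 rose by 1.07 ± 0.067 in Susd2-/- and 0.53 ± 0.066 in WT. Atp5g2 gave 21.5% and 21.4% of the summed CPM in Susd2-/- at day 3 and 27.1% and 28.4% at day 0. In WT it gave 22.4% and 23.3% at day 3 and 35.8% and 38.3% at day 0. The libraries of the 4 groups kept apart in this share, with WT day 0 at the top and both day 3 groups at the bottom.

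**Figure D3:**
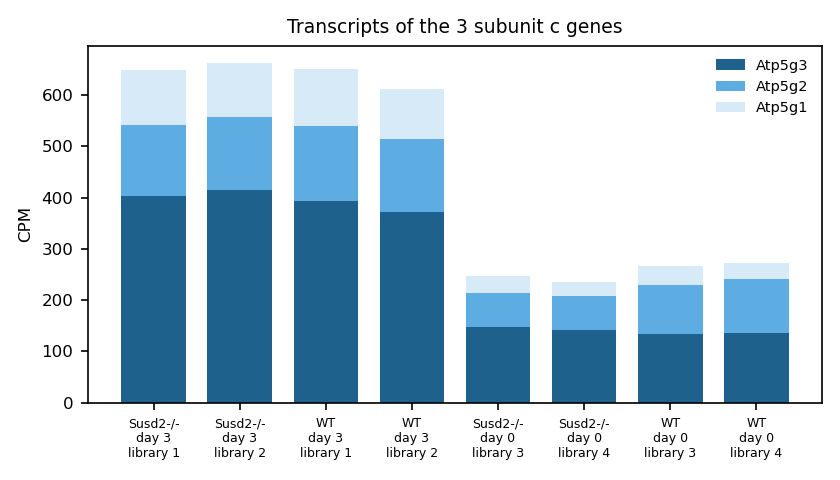
Stacked CPM of Atp5g3, Atp5g2 and Atp5g1 in each of the 8 libraries. The stacks reach 612 to 663 CPM at day 3 and 235 to 273 CPM at day 0, and the Atp5g2 segment is 67 CPM in both Susd2-/- day 0 libraries against 96 and 105 CPM in WT day 0.

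The exceptions were 3 members that fell in Susd2-/- cells and 7 in WT. Ndufa6, a LYR-motif accessory subunit of complex I that binds the mitochondrial acyl carrier protein, fell in both: it had 35.7 and 42.4 CPM in Susd2-/- at day 3 against 60.6 and 52.5 at day 0, and 35.6 and 38.8 in WT at day 3 against 90.7 and 88.2 at day 0 (log2 fold change -0.53 ± 0.093 and -1.26 ± 0.094, adjusted p 4.8e-05 and 4.6e-10 by edgeR). Cox7a2l was the other member that fell in both genotypes. Cox6b2, a testis isoform of a complex IV subunit, fell in Susd2-/- (log2 fold change -1.66 ± 0.49) at a low level that is described with the genotype comparison. In WT the complex I subunits Ndufb11 (-0.36) and Ndufb2 (-0.47), the stalk subunit Atp5h (-0.19) and Atp5l (-0.18), which encodes subunit g, also fell. In Susd2-/- cells Ndufb11 and Atp5l rose, by 0.18 and 0.32, and Ndufb2 and Atp5h did not pass the test. The WT calls of Atp5l, Ndufb2 and Atp5h were lost when single libraries were left out, in 7, 5 and 4 of 8 cases.

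The day 3 and day 0 libraries also differed in how counts depended on transcript length, as did the day 0 libraries of the genotypes, and the part of stimulation in this was not tested. Among genes averaging at least 8 CPM that were neither members nor ribosomal protein genes, those under 750 bases had a median log2 change of 0.51 in Susd2-/- and 0.18 in WT, where the 34 members of that length had 1.08 and 0.79. From 750 to under 1500 bases the medians were 0.70 and 0.54 for 1085 other genes and 1.16 and 0.75 for 25 members. With a length offset fitted without members and ribosomal protein genes, 54 members rose and 13 fell in Susd2-/-, and 49 rose and 16 fell in WT, with medians of 0.43 and 0.33. Under that offset the medians of all tested genes were -0.37 and -0.32, and 46.2% and 44.3% of them fell (78.1% and 76.5% in either direction). Cox7a2l then had -2.28 and -2.59. Under scaling by total counts the median of all genes shifted to -0.32 in both genotypes, and 66 members rose and 4 fell in Susd2-/- while 59 rose and 12 fell in WT.

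Counts of some members could include reads of near-identical copies or lack reads shared with them, since the treatment of such reads is not given in the sources used here. By a match of at least 95% over 150 bases, 27 members had a similar transcript of another gene on the same strand. Genes similar to Atp5g1, Atp5h, Atp5l, Cox5b, Cox6c2, Ndufa12, Ndufb4c and Ndufs6b held over 10% as many counts as the member, and those values are uncertain. For the rest of the 27, reads lost by dropping shared ones could not be seen. On the opposite strand Ndufb5 (12223 counts over all libraries) overlaps Mrpl47 (8336 counts), Atp5pb overlaps Wdr77 and Cox4i1 overlaps Emc8; the counting's strand setting is not given either, so their reads cannot be told apart.

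Promoters of members that rose and of members that fell were read for the letters of regulators long associated with respiratory genes. RefSeq (GRCm38.p6) gave a window of 250 bases before to 50 after the start for 67 of the 86 members. The letters of nuclear respiratory factor 1 were searched as GCATGCGC and as the palindrome that puts GC before those letters and so contains them, those of the ETS factor GABPA as CCGGAAGT, those of YY1 as AAGATGGC and the TATA box as TATAAA, on both strands. GCATGCGC was found in 14.9% of member windows, against 5.79% of windows of tested genes and 3.05% of all 27025 genes in the promoter table; for the palindrome the shares were 7.46%, 2.29% and 1.07%. AAGATGGC was found in 14.9%, 5.21% and 3.19%, CCGGAAGT in 7.46%, 9.01% and 4.31%, and TATAAA in 10.4%, 8.97% and 15.7%. Of members higher at day 3 in both genotypes, 8 of 52 windows held GCATGCGC and 9 held AAGATGGC. Of members lower at day 3 in either genotype, 2 of 8 held GCATGCGC and 0 held AAGATGGC. A match is a description of letters and not of binding. The windows that follow, chosen after the values were seen, run 5′ to 3′ with the matched letters in capitals: 4 belong to members that rose in both genotypes (Uqcr11 with both an ETS and a short NRF1 match, Uqcrc1 with the palindrome, Ndufb8 and Atp5j2 with YY1 letters just after the start) and the last 2 to members that fell, Ndufa6 in both genotypes and Uqcrh in WT.
Uqcr11 promoter, chr10:80406772-80407071, minus strand: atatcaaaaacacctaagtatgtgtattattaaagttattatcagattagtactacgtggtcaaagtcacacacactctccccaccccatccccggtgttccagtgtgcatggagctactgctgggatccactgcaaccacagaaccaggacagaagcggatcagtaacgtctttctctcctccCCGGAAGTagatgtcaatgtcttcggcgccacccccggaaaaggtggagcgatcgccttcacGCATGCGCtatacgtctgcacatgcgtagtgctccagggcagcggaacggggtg
Uqcrc1 promoter, chr9:108936398-108936697, plus strand: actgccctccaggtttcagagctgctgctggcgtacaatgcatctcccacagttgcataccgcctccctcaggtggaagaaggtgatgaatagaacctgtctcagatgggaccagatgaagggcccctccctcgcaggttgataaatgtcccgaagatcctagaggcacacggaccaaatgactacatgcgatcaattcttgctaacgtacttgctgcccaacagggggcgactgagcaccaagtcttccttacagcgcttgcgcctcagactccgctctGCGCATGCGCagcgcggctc
Ndufb8 promoter, chr19:44555393-44555692, minus strand: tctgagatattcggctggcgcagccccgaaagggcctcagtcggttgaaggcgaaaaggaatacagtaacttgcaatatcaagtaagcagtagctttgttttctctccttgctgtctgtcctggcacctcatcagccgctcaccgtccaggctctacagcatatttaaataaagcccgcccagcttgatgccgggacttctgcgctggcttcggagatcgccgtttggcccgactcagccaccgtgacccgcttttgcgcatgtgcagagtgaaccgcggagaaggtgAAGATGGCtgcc
Atp5j2 promoter, chr5:145191492-145191791, minus strand: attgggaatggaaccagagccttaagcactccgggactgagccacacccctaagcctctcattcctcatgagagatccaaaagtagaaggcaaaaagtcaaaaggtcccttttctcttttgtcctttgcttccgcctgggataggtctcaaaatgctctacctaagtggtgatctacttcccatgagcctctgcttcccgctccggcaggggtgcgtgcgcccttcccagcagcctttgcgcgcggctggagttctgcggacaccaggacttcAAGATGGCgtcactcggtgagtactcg
Ndufa6 promoter, chr15:82354242-82354541, minus strand: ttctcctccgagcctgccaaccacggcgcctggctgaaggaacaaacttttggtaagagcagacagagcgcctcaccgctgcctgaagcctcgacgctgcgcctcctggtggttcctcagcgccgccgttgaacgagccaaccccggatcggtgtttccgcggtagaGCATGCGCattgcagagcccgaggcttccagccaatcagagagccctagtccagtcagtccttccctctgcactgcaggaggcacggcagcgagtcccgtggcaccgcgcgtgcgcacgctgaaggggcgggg
Uqcrh promoter, chr4:116075021-116075320, minus strand: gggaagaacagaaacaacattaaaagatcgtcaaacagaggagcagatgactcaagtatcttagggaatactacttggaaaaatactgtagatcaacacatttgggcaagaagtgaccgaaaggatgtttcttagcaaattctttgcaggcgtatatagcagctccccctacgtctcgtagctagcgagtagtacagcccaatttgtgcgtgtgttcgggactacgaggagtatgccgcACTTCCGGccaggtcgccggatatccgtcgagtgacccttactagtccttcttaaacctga
The NRF1 letters thus stood in the window of Ndufa6, which fell, as well as in those of Uqcr11 and Uqcrc1, which rose. In Ndufb8 and Atp5j2 the AAGATGGC match began at base 39 and base 24, counting the start site as 1, and in Ndufa6 the GCATGCGC match began 83 bases before the start. The capitals in Uqcrh are the ETS letters read on the opposite strand.

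Genes that work with the complexes moved with them in part. Over the same days 36.7% of all tested genes rose and 39.7% fell in Susd2-/-, and 36.2% rose and 39% fell in WT. Of 46 tested assembly factors, 34 rose and 3 fell in Susd2-/- and 31 rose and 9 fell in WT. Sco1, a copper carrier for complex IV, rose by 2.56 and 2.58 and Ndufaf2, a complex I assembly factor, by 2.64 and 1.99. Of 16 genes of mobile carriers and coenzyme Q synthesis, 11 rose and 2 fell in Susd2-/- and 12 rose and 2 fell in WT. Cycs, the cytochrome c of somatic cells, had 241 ± 13.2 CPM in Susd2-/- at day 3 against 36.1 ± 1.61 at day 0, and 242 ± 15.6 in WT at day 3 against 45.9 ± 0.85 at day 0 (SD, n = 2 each). Coq7, an enzyme of coenzyme Q synthesis, rose by 3.05 and 3.03, and Coq8a, a kinase-like regulator of that pathway, fell by 2.05 in Susd2-/- and by 2.61 in WT. Atpif1, the inhibitor that stops ATP synthase from running backwards, rose by 2.29 and 1.93. In the citric acid cycle 17 of 18 genes rose and 1, Idh2, fell in each genotype, and of 19 glycolysis genes 17 rose in Susd2-/- and 18 in WT, with medians of 2.89 and 2.97. Of 13 tested regulators of mitochondrial biogenesis 7 rose in Susd2-/- and 8 in WT, and 2 fell in each; Nrf1 rose by 0.81 and 0.73, the coactivator Pprc1 by 0.97 and 1.06 and Myc by 1.40 and 1.83, while the coactivator Ppargc1b fell by 1.44 and by 0.82.

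The 13 subunits encoded by mitochondrial DNA did not share the rise. In Susd2-/- cells 1 rose (mt-Nd1, by 0.17) and 1 fell (mt-Co1), and in WT 6 fell and 0 rose. Transcripts of mt-Co1, the catalytic core of complex IV, were at 4456 ± 83.1 CPM in Susd2-/- at day 3 against 6656 ± 187 at day 0, and at 4796 ± 99.0 in WT at day 3 against 9031 ± 170.0 at day 0 (SD, n = 2 each). Their median log2 change was 0.03 in Susd2-/- and -0.28 in WT, beside 1.10 and 0.79 for the nuclear members. Reads of mitochondrial genes can also match nuclear copies, so their values are uncertain.

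Before stimulation, many subunit transcripts were lower in Susd2-/- cells than in WT, by modest amounts. Of 81 tested members, 45 were lower and 1 was higher (edgeR, adjusted p below 0.05), in a comparison in which 12.1% of all tested genes were lower and 11.5% higher (23.6% in either direction). The median log2 difference of Susd2-/- over WT was -0.26 over members and 0.01 over all tested genes. The 45 members were lower by 1.15-fold to 1.66-fold. They came from every complex: 21 of 38 in complex I, 1 of 4 in complex II, 5 of 8 in complex III, 7 of 14 in complex IV and 11 of 17 in complex V.

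**Figure D4:**
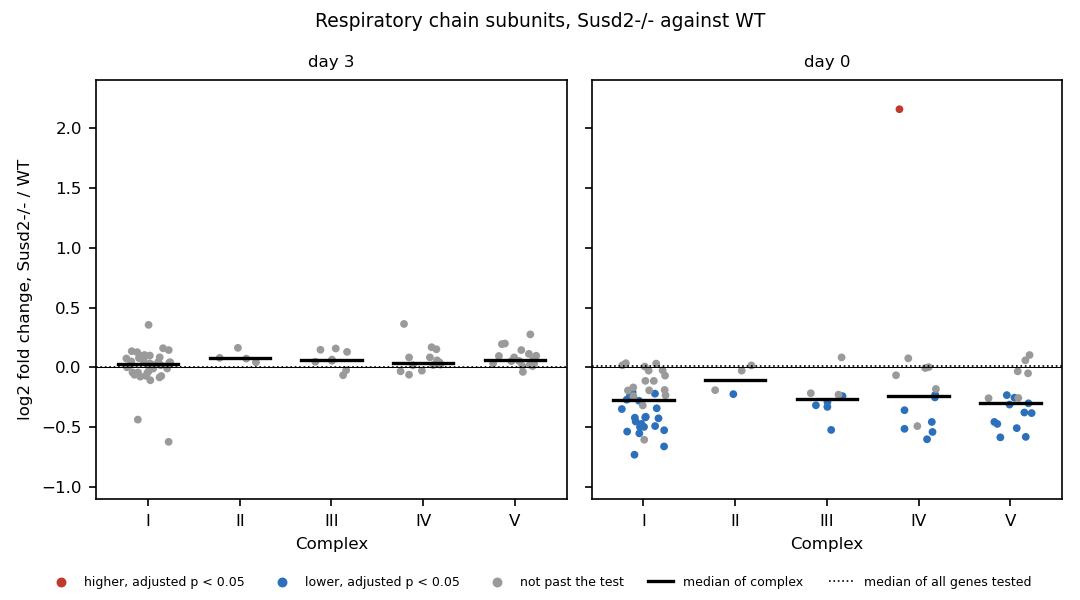
Each point is 1 member; the vertical axis is its log2 fold change of Susd2-/- over WT, the horizontal axis its complex, and the panels are day 3 and day 0. At day 3 no member passed the test; at day 0, 45 lie below 0 in blue and 1 member of complex IV lies above 2.

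The lower members were spread unevenly within the enzymes, whose subunits also differ in transcript length, as taken up below. In ATP synthase the small membrane subunits have 362 to 955 bases, the peripheral stalk 625 to 1604 and the F1 head 421 to 2471. In ATP synthase, all 4 peripheral stalk subunits and 4 of 5 small membrane subunits were lower, with medians of -0.35 and -0.46, but 2 of 5 subunits of the F1 head. Atp5b had 748 and 705 CPM in Susd2-/- and 699 and 696 in WT (log2 difference 0.06, adjusted p = 0.51 by edgeR), and Atp5a1 606 and 576 in Susd2-/- and 612 and 611 in WT (-0.05, adjusted p = 0.59), while the gamma subunit gene Atp5c1 was lower, at 122 and 124 CPM in Susd2-/- and 158 and 161 in WT. Among the subunit c genes Atp5g2 was lower by 1.49-fold, with 66.9 and 66.9 CPM in Susd2-/- and 95.6 and 105 in WT, and Atp5g1 and Atp5g3 did not pass the test. Atp5mpl, a small membrane subunit, was at 40.2 and 36.7 CPM in Susd2-/- and 58.5 and 56.8 in WT (-0.58 ± 0.079), and Atp5j2, subunit f, was lower by 0.51 on the log2 scale.

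In complex I, 3 of 7 core subunits (Ndufs1, Ndufs8 and Ndufv2) and 18 of the 31 other tested members were lower. Ndufv2, which carries an iron-sulfur cluster beside the flavin subunit, had 60.9 and 59.1 CPM in Susd2-/- and 84.7 and 84.7 in WT (-0.50 ± 0.067, adjusted p = 3.1e-05 by edgeR). Its partner Ndufv1 had 73.6 and 79.0 in Susd2-/- and 77.7 and 71.2 in WT, with overlapping groups. Ndufc2 showed the largest difference of the lower members, with 30.4 and 24.1 CPM in Susd2-/- and 43.4 and 47.2 in WT (-0.73 ± 0.15, adjusted p = 0.0079), a call lost without WT day 0 library 4. Ndufa6 was at 60.6 and 52.5 in Susd2-/- and 90.7 and 88.2 in WT (-0.66 ± 0.091), and Ndufa1, a short membrane subunit, was lower by 0.55 on the log2 scale.

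In the remaining complexes, Sdhd was lower by 0.22 on the log2 scale, a call lost on leaving out any day 0 library, and Sdha had 276 and 260.5 CPM in Susd2-/- and 270.0 and 260.2 in WT. Uqcrh was at 135 and 124 CPM in Susd2-/- and 196.5 and 176 in WT (-0.52 ± 0.084, adjusted p = 0.00028 by edgeR). Uqcrc2 was lower by 0.32 and Uqcr11 by 0.33, a call lost for Uqcr11 without Susd2-/- or WT day 0 library 4, whereas Uqcrc1 had 147 and 147 CPM in Susd2-/- and 135 and 142 in WT. In complex IV, Cox7b, a small membrane subunit, was at 49.5 and 52.1 CPM in Susd2-/- and 75.7 and 78.3 in WT (-0.60 ± 0.073, adjusted p = 9.8e-06), Cox7a2 was lower by 0.54, Cox7a2l by 0.51 and Cox6b1, which faces the intermembrane space, by 0.46. Cox5b had 73.3 and 67.1 CPM in Susd2-/- and 67.1 and 66.3 in WT.

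The 1 member that was higher, Cox6b2, had 2.37 and 2.26 CPM in Susd2-/- at day 0 and 0.75 and 0.27 CPM in WT, or 75 and 66 counts against 24 and 8 (log2 difference 2.16 ± 0.51, adjusted p = 0.0048 by edgeR). The call was lost without WT day 0 library 4, when only the first lane of each library was counted and when the 2 libraries of each day 0 group were treated as 1.

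Transcript length moved with this difference. The tested members had a median transcript length of 763 bases in GENCODE M21, against 2518 for all tested genes. Of the genes averaging at least 8 CPM that were neither members nor ribosomal protein genes, 286 under 750 bases had a median of -0.30 at day 0 and 42.3% of them were lower, beside -0.31 for the 34 members of that length. From 750 to under 1500 bases the medians were -0.27 for 25 members and -0.15 for 1085 other genes, from 1500 to under 3000 bases -0.13 for 14 members and -0.01 for 3063 others, and from 3000 bases up 0.06 for 4453 others. When each library was fitted with an offset for its own length trend, 12 members were higher and 16 lower, with a median of -0.02. With the trend fitted without members and ribosomal protein genes, 9 were higher and 19 lower, with a median of -0.05. All tested genes had a median of 0.05 under either offset. Of them 9.55% and 9.81% were lower, and 22.9% and 22.8% were called in either direction. Cox7b, Ndufa6, Cox7a2l and Atp5g2 were lower under both offsets, by 0.30 to 0.40 on the log2 scale. At day 3 the 34 short members and the 286 other short genes had medians of 0.06 and 0.05.

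**Figure D5:**
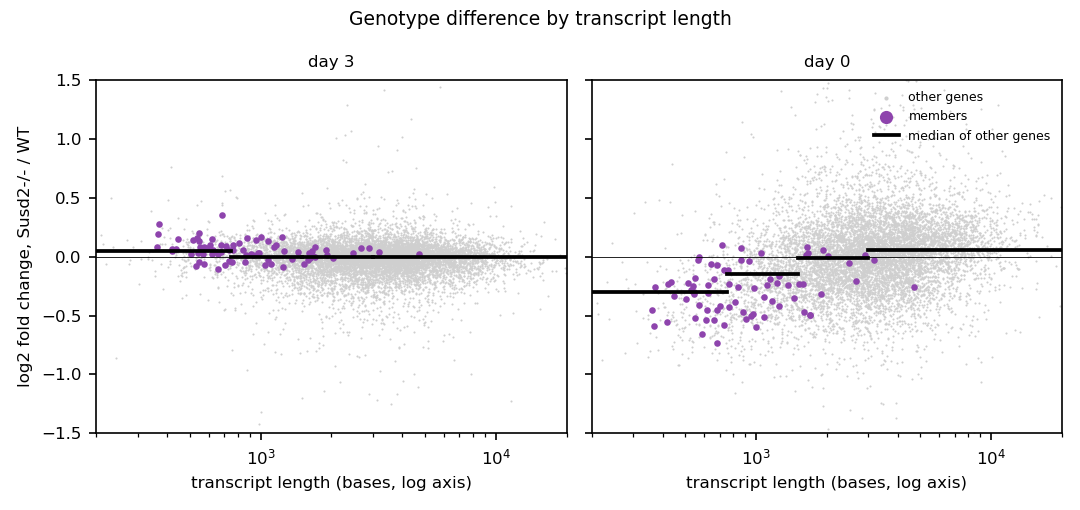
Log2 fold change of Susd2-/- over WT against transcript length (log axis) for genes averaging at least 8 CPM; purple points are members, grey points other genes, and black lines the medians of other genes in 4 length ranges. At day 0 the lines climb through -0.30 under 750 bases, -0.15 from 750, -0.01 from 1500 and 0.06 at 3000 bases and over. The medians of members in these ranges were -0.31, -0.27, -0.13 and -0.14, the last from 2 members. At day 3 the lines lie between -0.005 and 0.05. Genes beyond the vertical axis limits are not drawn.

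Other differences between the day 0 groups stood beside these. Of 15 red pulp macrophage and monocyte markers, 10 were higher and 0 lower in Susd2-/-; their summed level was 235 and 222 CPM in Susd2-/- and 116 and 116 in WT, and no marker was at 0 in all libraries. C1qa had 10.5 ± 0.10 CPM in Susd2-/- and 3.76 ± 0.43 in WT (SD, n = 2 each). Of 13 B and plasma cell markers, 4 were higher and 2 lower, with sums of 725 and 657 CPM in Susd2-/- and 596 and 606 in WT. The 10 CD8 T cell genes summed to 6153 and 5734 CPM in Susd2-/- and 6617 and 6522 in WT. Their part in the members' difference was not tested. Fewer members were called when both libraries of a day 0 group were treated as a single one. The same held when Susd2-/- day 0 library 4 was left out. The member medians were then -0.26 and -0.22, beside 0.01 and 0.01 for all tested genes.

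Partner genes were also compared at day 0, where 11.5% of all tested genes were higher and 12.1% lower. Of 46 assembly factors 13 were lower and 0 higher, among them the complex I factor Tmem126b, with 13.2 ± 1.12 CPM in Susd2-/- and 24.1 ± 0.13 in WT (SD, n = 2 each), and Lyrm7, which helps mature the Rieske protein, at -1.05 on the log2 scale. Cycs was lower by 0.35. Of the 13 mitochondrially encoded subunits 4 were lower and 0 higher, and all 13 had a negative log2 difference, with a median of -0.31. Of these, mt-Nd3, a complex I subunit, had 0.766 ± 0.37 CPM in Susd2-/- and 4.94 ± 0.26 in WT at day 0 and 0.984 ± 0.057 and 4.38 ± 1.53 at day 3. The citric acid cycle had 3 genes higher (Dlst, Ogdh and Idh3a) and 3 lower (Idh2, Dld and Fh1) of 18, and glycolysis had 1 higher and 2 lower of 19. Myc was higher in Susd2-/- by 0.45 and Tfam, which packages and transcribes mitochondrial DNA, was lower by 0.30.

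After 3 days of stimulation the genotypes were not distinguishable member by member with 2 libraries a group. No member passed the test, where 0.137% of all tested genes did, 0.0498% higher and 0.0872% lower; 7 of 81 members had an unadjusted p under 0.05 with edgeR, beside 1267 of all 16057 genes, and DESeq2 and limma voom called 0. The median log2 difference was 0.05 over members and 0.00 over all tested genes, and 61 of 81 members had a positive value, beside 8002 of all 16057 genes. The smallest adjusted p was that of Atp5k, subunit e of ATP synthase, with 65.6 and 74.5 CPM in Susd2-/- and 62.2 and 53.7 in WT (0.28 ± 0.089, adjusted p = 0.38 by edgeR). Ndufc2 had 104 and 116 CPM in Susd2-/- and 97.6 and 75.1 in WT (0.35 ± 0.14, adjusted p = 0.58). Values for Sdhd, Uqcrb and Cox7b were 0.16, 0.16 and 0.17, with adjusted p of 0.55, 0.70 and 0.57. Leaving out WT day 3 library 1 gave 2 calls, Atp5k and Ndufc2.

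The change of the genotype difference between the days was tested directly. For 36 of 81 members it was positive at an adjusted p below 0.05 and for 0 negative, where 6.6% of all tested genes were called in the positive direction and 6.88% in the negative (13.5% in either). By complex these were 16 of 38, 1 of 4, 4 of 8, 5 of 14 and 10 of 17, from complex I to V. This contrast uses the same libraries as the genotype and day comparisons and restates them in 1 number: it is equally the amount by which the rise over 3 days was greater in Susd2-/- than in WT. Cox7b had the smallest adjusted p, with a difference of 0.77 ± 0.10 (adjusted p = 7.4e-05 by edgeR); it rose by 1.28 in Susd2-/- and 0.51 in WT. Atp5mpl (0.78), Cox6b1 (0.61), Atp5j2 (0.65), Ndufv2 (0.58), Ndufa4 (0.64), Atp5g2 (0.54) and Ndufa6 (0.74) followed. In Ndufa6 and Cox7a2l (0.49) a positive value means a smaller fall in Susd2-/- than in WT, and in Uqcrh (0.65) a fall called in WT and not in Susd2-/-; the day 3 levels of all 3 overlapped between the genotypes. All 5 small membrane subunits of ATP synthase were among the 36. So were 1 of 7 core subunits of complex I and 1 of 3 core and Rieske proteins of complex III (Uqcrc2, 0.37). Atp5b (-0.05), Atp5a1 (0.08), Sdha (0.06) and Uqcrc1 (-0.04) were not, and their transcripts have 1653 to 2900 bases. Those of the small membrane subunits have 362 to 955. Other genes had a median of 0.34 under 750 bases and -0.0005 from 1500 to under 3000. The part of transcript length in this split was not tested. With the length offset fitted on all genes 15 members were higher and 3 lower, with the other offset 17 and 3, and the call of Cox7b held with 0.56 and 0.58. Of all tested genes 12.6% and 12.5% were called under these offsets, 7.04% and 6.82% in the negative direction. Fewer members were called without Susd2-/- day 0 library 4 and with both libraries of a day 0 group treated as a single one. The member medians were then 0.29 and 0.31, beside 0.30 with all libraries. Those of all tested genes were -0.01 and -0.01.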

How the data were processed

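CD8+ T cell RNA was analysed from a table of read counts per gene and sequencing lane, as deposited by the authors; the values are whole numbers, not normalized. The submitters' processing notes name the build GRCm38 and the tools Subread 2.0.1, SAMtools 1.10, HISAT2 2.1.0 and fastp 0.23.2; not given in the sources used here were the annotation release, the strand setting and the handling of multi-mapping reads. The 15 lanes were summed into 8 libraries (WT day 3 library 2 had 1 lane). Depth sets precision through counting error, which is small except for members with few counts.

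Genes were kept by filterByExpr and scaled by TMM, and all 8 libraries were fitted together with edgeR 4.0.16 (robust quasi-likelihood, R 4.3.3). The genotypes were compared within each day, the days within each genotype, and the difference of the genotype effects was tested. P-values were adjusted over all 16057 genes by Benjamini-Hochberg, with a threshold of 0.05. DESeq2 1.42.0, limma 3.58.1 voom, other scalings, other filters, left-out libraries and length offsets were alternatives; the scripts were tested on simulated counts. Lengths came from GENCODE M21 and promoter windows from RefSeq.

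Named were the isoform sets, subunit c, complex II and, for each comparison and complex, up to 3 members per direction with the largest change and non-overlapping groups (smallest adjusted p for the difference of effects); other subunits, such as Atp5b, Atp5a1, Atp5c1, Uqcrc1, Cox5b and Ndufv1, were chosen after their values were seen. Members and gene lists were chosen with earlier results of these data known.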

Additional observations from a re-analysis of the deposited data

Results flagged for a closer look

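The genotype difference at day 3 minus that at day 0 passed the test in edgeR for 36 of 81 members, all positive. Of all tested genes 6.6% were called in the positive direction and 6.88% in the negative. Of the 36 members, 35 were among those called lower in Susd2-/- at day 0, and no member passed the test at day 3. Listed by complex on the log2 scale, the members named for this contrast were Ndufv2 (0.58), Ndufa4 (0.64) and Ndufa6 (0.74) of complex I, and Sdhd (0.39) of complex II. In complex III they were Uqcrh (0.65), Uqcrc2 (0.37) and Uqcr11 (0.48). In complex IV they were Cox7b (0.77), Cox6b1 (0.61), Cox7a2l (0.49) and Cox7a2 (0.56), and in complex V Atp5mpl (0.78), Atp5j2 (0.65) and Atp5g2 (0.54). Without Susd2-/- day 0 library 4 the calls of Sdhd, Cox7a2l, Cox7a2, Uqcrc2 and Uqcr11 were lost. Uqcrc2 was also lost without WT day 0 library 3, and Uqcr11 without WT day 0 library 4. Atp5g2 missed the threshold under both length offsets, with 0.25 and 0.28. Other short genes moved alike: 286 genes under 750 bases that were neither members nor ribosomal protein genes had a median of 0.34, beside 0.37 for 34 members of that length. The part of transcript length in this pattern was not tested beyond these offsets.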

How the results depend on the processing

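For Susd2-/- against WT at day 0, 46 members were called; the length offsets gave 28 calls each, 12 higher and 16 lower, or 9 higher and 19 lower when fitted without members and ribosomal protein genes, and treating both libraries of a day 0 group as a single one gave 12. Leaving out 1 library gave 26 to 53, lowest without Susd2-/- day 0 library 4. At day 3 there were 0 calls, 1 with no filter on low counts and 0 to 2 with 1 library left out, 2 without WT day 3 library 1. For the difference of the genotype effects, 36 calls became 18 and 20 under the length offsets and 7 with single day 0 libraries, and 22 to 43 with 1 library left out. Total calls over the days, 74 in Susd2-/- and 70 in WT, stayed within 1.5 times under every alternative run, but the members that fell, 3 and 7, became 10 and 14 under the length offset and 13 and 16 under the other offset. In WT they were 12 with total-count scaling, 4 with no filter, in the first lane and with single day 0 libraries, and 4 to 6 with 1 library left out; in Susd2-/- 2 fell in the first lane. Of called members, 10 and 7 changed sign at day 0 under the 2 offsets, 10 and 12 over days in Susd2-/-, 3 and 9 in WT, and 1 and 0 for the difference; with total-count scaling 1 did, in Susd2-/- over days. Among the members named for each comparison, those reversed were Uqcr11 (0.0348) and Cox4i1 (0.0435) at day 0 under the length offset, and Cox4i1 at day 0 (0.0157) and Ndufa4 over days in WT (-0.0628) under the other offset; the cause was not tested. The length offsets and the single day 0 libraries were added after the data were seen. With the replicate number as a block, calls were 43 at day 0, 0 at day 3 and 34 for the difference; same-numbered libraries did not deviate together (r = 0.0086 at day 0 and -0.010 at day 3 across 16057 genes), and the days share no number. The offset from coding length was not run, since no protein table was used here. With 2 libraries a group, small differences can be missed. Leaving out a day 0 library, or treating both as a single one, lowered the calls over all tested genes too, at day 0 and for the difference. Under the 2 length offsets 22.9% and 22.8% of all tested genes were called at day 0, beside 23.6% in the main fit. For the difference these shares were 12.6% and 12.5%, beside 13.5%.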
